A study of Mus musculus with 18 samples.

Results

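The cells compared here were female mouse cells in the course of reprogramming, separated by the surface antigen SSEA1 into SSEA1-positive (SSEA1+) and SSEA1-negative (SSEA1-) cells, with samples 1 and 2 of each. These are 4 of the 18 samples of a series on X chromosome reactivation, and only autosomes are described. Reads from the 2 strands of each CpG were summed, CpGs with at least 5 reads were kept, and reads were pooled over fixed windows of 1 kb, called tiles, with 3 or more such CpGs in each of the 4 samples. This gave 64234 tiles. The same tiles were read off in female fibroblasts taken from mouse embryos (MEF, n = 4), male MEF (n = 2), induced pluripotent stem cells of female origin (iPSC, n = 2), female embryonic stem cells (ESC, n = 4) and male ESC (n = 2). The labels give no strain, reprogramming factors, day of sorting or purity, and do not say whether replicates are separate cultures, so p-values may reflect technical spread only. With no expression data the sorted antigen itself was not checked. A level is a mean over all cells of a sample, so fewer cells with a changed tile and less change per cell cannot be told apart.

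SSEA1 is a sugar epitope (the Lewis X group) that mouse pluripotent stem cells display and fibroblasts lack, and it appears on a part of the cells of a reprogramming culture before the pluripotency network is fully active. Sorting on it is a common way to enrich cells on the way to iPSC. DNA methylation of CpGs is copied at cell division, is low at most CpG-rich promoters, and is high over most other CpGs of somatic cells. Promoters of many germline genes are an exception, being CpG-rich and methylated in somatic cells. The assay, reduced representation bisulfite sequencing, reads CpGs of short restriction fragments, in which an unmethylated cytosine is converted and a methylated one is not. The methylation level is the percentage of reads that kept the cytosine.

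Depth differed between the 4 libraries. SSEA1+ 1 held 23566525 reads over CpGs and SSEA1+ 2 held 11833113, against 23408025 and 34479499 in SSEA1- 1 and 2. The median tile had 130 and 52 reads in SSEA1+ and 133 and 193 in SSEA1-, so SSEA1+ 2 was the least deeply read. One read often covers several CpGs and is then counted once for each. All 4 libraries had a similar share of CpGs read on both strands (15.2 to 16.0%), whereas the iPSC libraries (7.25% and 7.35%) and female MEF 3 and 4 (7.33% and 7.46%) had a lower one. The other female and male MEF and the ESC ranged from 9.03 to 16.0%, and the labels do not say whether library preparation differed. Across tiles, the levels of SSEA1- 1 and 2 had a Pearson correlation of 0.973, those of SSEA1+ 1 and 2 of 0.954, and the 4 pairs of opposite sort of 0.938 to 0.962. SSEA1+ 1 was thus as close to both SSEA1- samples as to SSEA1+ 2.

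The methylation level over all CpGs barely separated the sorted populations. Over the 670620 autosomal CpGs with 5 reads in all 4 samples it was 36.2% and 34.98% in SSEA1+ 1 and 2, and 36.7% and 36.5% in SSEA1- 1 and 2. Both SSEA1+ samples were lower, but the difference of -0.961 points was about the size of the SD within SSEA1+ (0.889 points, n = 2). A 2-sided exact permutation test gave p = 0.333, the smallest value that 2 against 2 samples allow. Weighting CpGs by reads moved the difference to -4.12 points, and the use of each sample's own CpGs to -5.07. Without SSEA1+ 2 it was -0.332 points, and without SSEA1+ 1 it was -1.59.

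The small deficit of SSEA1+ cells lay in tiles that fibroblasts methylate. Tiles at 80% or more in female MEF (14101.0 tiles) averaged 84.4% and 82.7% in SSEA1+, and 86.2% and 85.9% in SSEA1-. Tiles at 60 to 80% in MEF averaged 70.6% and 66.6% in SSEA1+, and 71.3% and 70.9% in SSEA1-. In both classes the groups did not overlap, and the mean differences were -2.45 and -2.48 points (exact permutation p = 0.333 in each). At tiles under 20% in MEF all 4 samples lay between 2.06 and 2.51%, and the groups overlapped. At 20 to 60% in MEF, SSEA1+ 1 was above both SSEA1- samples and SSEA1+ 2 below them. By CpG number, tiles with 3 to 5 CpGs averaged 64.96% and 62.4% in SSEA1+ and 65.3% and 65.04% in SSEA1-, whereas tiles with 30 or more CpGs averaged 7.51% and 7.18% against 7.56% and 7.44%.

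Single tiles were tested with a quasi-binomial model, and a tile was called at a Benjamini-Hochberg adjusted p under 0.05 and a difference of at least 20 points. Fitted to the 4 libraries alone, it called 0 of 64234 tiles (0.0%). The lowest adjusted p was 0.737, 4080 tiles (6.35%) had an unadjusted p under 0.05, and 1856 of these differed by 20 points or more. The method of limma on log2 ratios also called 0, with 6535 tiles at an unadjusted p under 0.05.

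A fit that shared the spread over all 18 samples in 7 groups called differences between the same 4 libraries. Of 32195 tiles usable in every sample, 266 (0.826%) were lower and 173 (0.537%) higher in SSEA1+. The samples of the groups did not overlap at 263 of the lower and 173 of the higher tiles. A call already requires a large difference between the means of these samples, so the lack of overlap follows largely from the selection. The share of all tested tiles without overlap is not given here. The calls and adjusted p below are from this fit, which assumes that the SSEA1 samples vary as the other groups do. Fitted to the 4 libraries but only over tiles of 5 to 95%, the model called 117 lower and 97 higher, and 101 of the 439 tiles called by the fit of 7 groups were among these. Single libraries mattered: without SSEA1+ 1, 172 lower and 37 higher tiles were called, and without SSEA1+ 2 166 and 188. Without SSEA1- 1 the counts were 179 and 129, and without SSEA1- 2 they were 194 and 127. Of the 439 called tiles, 108 were still called without SSEA1+ 1 and 256 without SSEA1+ 2, in the same direction. At 10 reads per CpG, 120 of them could be tested, and 96 were called again.

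Called tiles were mostly poor in CpGs, and few held a placed gene start. Lower tiles made up 1.96% of tiles with 3 to 5 CpGs, 1.41% of those with 6 to 9, 0.494% with 10 to 19, 0.338% with 20 to 29 and 0.100% with 30 or more. For higher tiles these shares were 1.26%, 1.08%, 0.311%, 0.0423% and 0.0335%. With averages near 7% in tiles of 30 or more CpGs, few of these could be lower by 20 points. Promoters were placed by matching the spacing of CpGs in RefSeq promoter sequences to the CpG positions in the files, which succeeded for 8115 of 25748 genes. Of 5708 tiles with a placed gene start, 1 was lower and 3 were higher, against 265 and 170 of 26487 other tiles. The median distance to the nearest placed start was 36.9 kb for lower and 72.6 kb for higher tiles, beside 41.8 kb for all tested tiles and 71.3 kb for those with under 10 CpGs outside promoters. Within 10 kb of a placed start lay 21.1% of lower and 13.0% of higher tiles, beside 34.7% of all tested tiles and 15.9% of those with under 10 CpGs outside promoters. Genes named below are the nearest of those placed, and other genes may lie closer. Where RefSeq gene order puts further genes in the same interval, some are named.

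**Figure D1:**
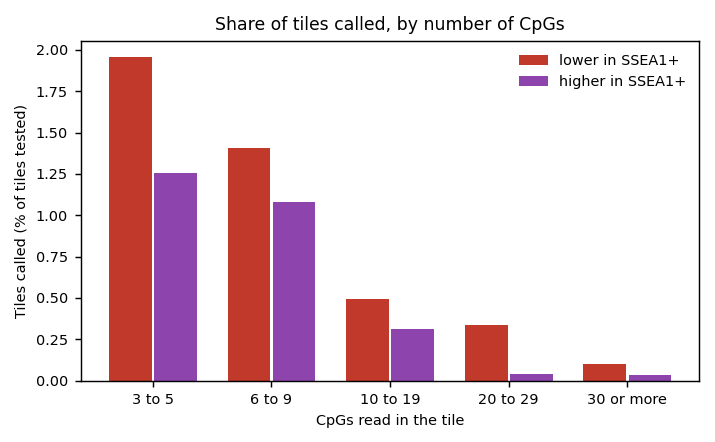
Percentage of tested tiles (y axis) called lower (red) or higher (purple) in SSEA1+ than in SSEA1- in the fit of 7 groups, by the number of CpGs read in the tile (x axis). The share is highest at 3 to 5 CpGs (1.96% and 1.26%) and lowest at 30 or more (0.100% and 0.0335%).

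Loss and gain below mean only a lower or a higher level in SSEA1+ than in SSEA1-, not a change from fibroblasts. The tiles with the largest loss in SSEA1+ were highly methylated in SSEA1- cells. On chromosome 19, 16158001 to 16159000 (build mm9), 48.7 kb upstream of the start of Gnaq, a G protein alpha subunit gene, the level was 21.2% and 11.1% in SSEA1+ 1 and 2, and 100% and 83.9% in SSEA1- 1 and 2 (difference of -75.8 points, adjusted p = 0.00349). Of its 6 CpGs, those from 16158814 to 16158826 were each at 4.17% and 11.1% in SSEA1+ and at 100% in SSEA1- 1, on 24, 9 and 6 reads per CpG. SSEA1- 2 stood at 66.7 to 100% at these CpGs, on 6 reads. MEF (92.01% ± 2.96, SD, n = 4) and iPSC (89.8% ± 1.22, SD, n = 2) were also high at this tile, so SSEA1+ stood apart from both fibroblasts and iPSC there.

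The tile with the second largest loss had this order in the SSEA1 cells but lower iPSC. On chromosome 19, 5660001 to 5661000 (13 CpGs), 3.21 kb downstream of the start of Sipa1, which encodes a GTPase-activating protein for Rap, the level was 47.8% and 0% in SSEA1+, and 98.7% and 93.05% in SSEA1- (adjusted p = 0.000625). MEF stood at 89.02% ± 4.04 and iPSC at 32.8% ± 2.92. The SSEA1+ samples differed from each other by 47.8 points, and SSEA1+ 2 had 28 reads in the tile.

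The next, on chromosome 12, 77628001 to 77629000 (4 CpGs), stood at 32.4% and 20% in SSEA1+ and at 96.7% and 95.7% in SSEA1- (adjusted p = 4.79e-05). It lies between the starts of Ppp1r36 and Sptb, an interval that also holds Plekhg3, with MEF at 74.1% ± 5.17 and iPSC at 67.2% ± 11.05. The tile nearest to Iqca (chromosome 1, 92099001 to 92100000) lies in an interval that also holds Ackr3, a scavenging chemokine receptor gene. Its level was 8.22% and 6.15% in SSEA1+ and 89.3% and 55.5% in SSEA1- (adjusted p = 0.00174). Here SSEA1+ stood near the iPSC level (7.74% ± 1.40), and MEF were at 51.2% ± 4.50.

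A tile on chromosome 9, 40606001 to 40607000, 75.7 kb upstream of the homeobox gene Bsx in an interval with Scn3b, Gramd1b, Clmp and Hspa8, was also low in iPSC. It stood at 32.7% and 13.9% in SSEA1+, 97.2% and 78.7% in SSEA1-, 83.5% ± 2.98 in MEF and 10.3% ± 0.510 in iPSC (adjusted p = 0.00171). Near Pik3cb, the gene of a catalytic subunit of phosphoinositide 3-kinase (chromosome 9, 99010001 to 99011000), SSEA1+ stood at 35.2% and 18.2% and SSEA1- at 92.5% and 81.9%, with iPSC at 40.9% ± 0.369 (adjusted p = 0.00169). The other 4 of the 10 largest losses, nearest to Gm35978, 1700016A09Rik, Pacsin2 and Gfra1, differed by -66.5 to -60.2 points. The tile 9.39 kb downstream of the start of Gfra1, a co-receptor gene for glial cell line-derived neurotrophic factor, had 54.5% and 0% in SSEA1+ and 79.3% and 95.6% in SSEA1-, and its call was lost without SSEA1+ 2 and without SSEA1- 2. The other 9 were called whichever 1 of the 4 libraries was left out.

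**Figure D2:**
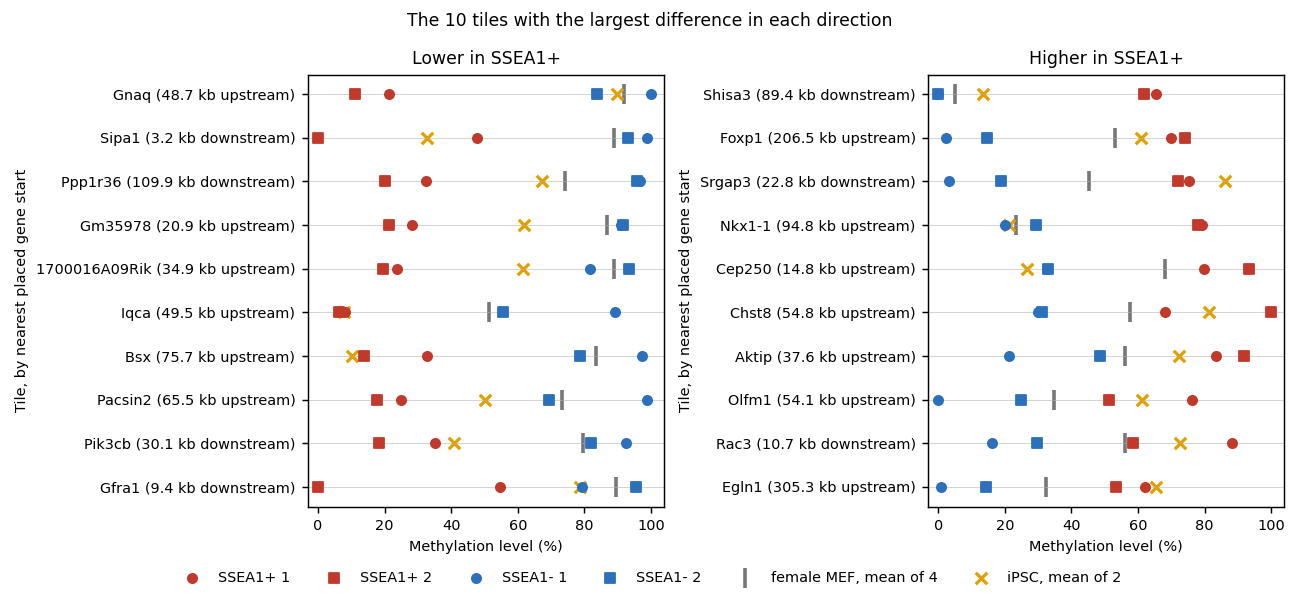
Methylation level (x axis, %) at the 10 tiles with the largest difference in each direction, lower (left) or higher (right) in SSEA1+ than in SSEA1-. Only called tiles with no overlap of samples are shown, each row named by the nearest placed gene start and its distance. Circles and squares are samples 1 and 2 of SSEA1+ (red) and SSEA1- (blue), bars the female MEF mean and crosses the iPSC mean; at the Gnaq tile, SSEA1+ is at 21.2% and 11.1% while all others shown are at 83.9% or more.

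The tiles with the largest gain in SSEA1+ were unmethylated or low in SSEA1- cells. On chromosome 5, 68088001 to 68089000 (3 CpGs), in the interval between Shisa3 and Gabra2 that also holds Atp8a1, Grxcr1, Kctd8 and others, the level was 65.4% and 61.8% in SSEA1+ and 0% and 0% in SSEA1- (adjusted p = 0.00229). Its 3 CpGs had 60%, 68.8% and 68.8% in SSEA1+ 1, 21.4%, 90% and 90% in SSEA1+ 2, and 0% at each in both SSEA1- samples, on 10 to 44 reads per CpG. MEF (5.15% ± 2.31), iPSC (13.4% ± 5.67) and female ESC (3.98% ± 4.84) were low as well, so SSEA1+ stood above both fibroblasts and iPSC. The call was lost without SSEA1- 2.

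On chromosome 6, 112874001 to 112875000 (3 CpGs), 22.8 kb downstream of the start of Srgap3, which encodes a GTPase-activating protein of Slit-Robo signalling, SSEA1+ stood at 75.3% and 72% and SSEA1- at 3.33% and 18.8% (adjusted p = 0.00169). Female MEF were at 45.4% ± 1.96, male MEF at 12.7% ± 15.6 (SD, n = 2) and iPSC at 86.01% ± 0.253. The SSEA1- samples lay below the mean of female MEF, but near that of male MEF. On chromosome 6, 99677001 to 99678000, in the interval from the forkhead gene Foxp1 to Shq1, which holds Rybp, a Polycomb component gene, SSEA1+ stood at 70% and 74.2% and SSEA1- at 2.44% and 14.6% (adjusted p = 0.00683). MEF (53.04% ± 5.48) and iPSC (60.96% ± 4.71) lay between them. On chromosome 8, 127778001 to 127779000, between Egln1, which encodes a prolyl hydroxylase of the oxygen response, and Sipa1l2, SSEA1+ stood at 62.04% and 53.4% and SSEA1- at 0.926% and 14.4% (adjusted p = 0.00874). The iPSC level there was 65.5% ± 12.1.

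Of the 10 largest gains, 9 lost the call when 1 library was left out, 8 of them without SSEA1+ 1. The exception was the tile 54.8 kb upstream of Chst8, a sulfotransferase gene (chromosome 7, 35652001 to 35653000), with 68.2% and 100% in SSEA1+ and 29.9% and 31.1% in SSEA1- (adjusted p = 0.00593). Its value in SSEA1+ 2 rests on 15 reads. The tile on chromosome 8, 108937001 to 108938000 was higher in SSEA1+ (73.3% and 52.6%) than in SSEA1- (17.9% and 12.5%, adjusted p = 0.00349), with iPSC at 61.4% ± 10.96, and its call was lost without SSEA1+ 1. It lies in an interval between the starts of Prmt7 and Chtf8 in which RefSeq orders Smpd3, Zfp90, Cdh3, Cdh1, Tango6 and Has3. Cdh1 encodes E-cadherin, the adhesion protein of epithelial cells that fibroblasts gain in reprogramming, but the place of the tile relative to these genes was not determined.

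Among tiles of 30 or more CpGs, 6 were lower and 2 higher in SSEA1+. The largest difference among these lower tiles was on chromosome 16, 17803001 to 17804000 (55 CpGs), 6.12 kb downstream of the start of Scarf2, a scavenger receptor gene. SSEA1+ stood at 22.2% and 20.4% and SSEA1- at 53.1% and 52.4% (adjusted p = 0.00119), on 529 to 1266 reads per sample. MEF (29.4% ± 7.49) and iPSC (31.2% ± 0.101) were nearer to SSEA1+ here, so SSEA1- stood above both fibroblasts and iPSC. On chromosome 2, 56964001 to 56965000 (30 CpGs), 11.9 kb downstream of the start of the orphan nuclear receptor gene Nr4a2, SSEA1+ stood at 24.7% and 29.1% and SSEA1- at 55.7% and 57.6% (adjusted p = 0.000122). MEF had 40.997% ± 5.77 and iPSC 12.6% ± 2.30, and this call was lost without SSEA1+ 1.

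On chromosome 3, 94976001 to 94977000 (39 CpGs), 12.2 kb downstream of the start of Sema6c, which encodes a semaphorin, SSEA1+ stood at 41.1% and 37.99%, SSEA1- at 65.1% and 74.1%, and iPSC at 5.59% ± 0.0609 (adjusted p = 0.000335). The tiles near Pitpnb and Hs3st3b1 differed by -26.7 and -25.9 points, and each lost its call without SSEA1+ 1 and at least 1 other library. The dense gains were on chromosome 19, 7497001 to 7498000, nearest to 2700081O15Rik, with 30.9% and 30.7% in SSEA1+ and 3.61% and 9.42% in SSEA1-, and on chromosome 1, 136195001 to 136196000, nearest to Gm32267, with 33.5% and 28.9% against 9.65% and 9.17%. The second was lost without SSEA1+ 1. At the first, iPSC (13.1% ± 3.33) and female ESC (2.13% ± 0.177) were low, and MEF had 20.3% ± 5.84.

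Some called tiles were neighbours. Within 10 kb of each other lay 6 successive pairs of lower and 1 pair of higher tiles. A run of 3 adjacent lower tiles lay on chromosome 8 from 87229001 to 87232000. Along the run, SSEA1+ 1 had 12.8%, 15.3% and 6.25%, and SSEA1+ 2 had 3.80%, 12.5% and 7.69%. SSEA1- 1 had 32.9%, 34.6% and 22.8%, and SSEA1- 2 had 27.96%, 53.5% and 40.6%. MEF were at the SSEA1- level or above it (33.9%, 53.6% and 51.2%), and iPSC at 6.05%, 6.24% and 6.40%. The higher pair lay on chromosome 2, 93362001 to 93363000 and 93365001 to 93366000, nearest to Cd82, a tetraspanin gene, and 59.4 kb from its start. The first tile of the pair stood at 33.8% and 37.9% in SSEA1+ and at 3.03% and 3.05% in SSEA1-. The second stood at 83.2% and 75.3% against 34.5% and 28.8%, and iPSC were at 68.4% and 74.3% in this pair.

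At the lower tiles, median levels of SSEA1- cells lay near those of female fibroblasts. Over the 266 lower tiles SSEA1+ 1 and 2 had median levels of 38.1% and 28.7%, SSEA1- 1 and 2 of 78.3% and 77.5%, and the 4 female MEF of 73.8 to 76.8%. Female MEF were nearer to SSEA1- at 236 of the 266 (88.7%), beside 74.5% of all tested tiles with a lower mean in SSEA1+. Without SSEA1- 2 this was 144 of 194 lower tiles (74.2%) and at 10 reads per CpG 48 of 64 (75%), both near that share. The SSEA1 values chose these tiles, so they are described without a test. The MEF and iPSC samples entered the choice only through the shared spread and the need for tiles to be usable in every sample. The iPSC medians were 50% and 45.3%, and iPSC were nearer to SSEA1+ at 173 tiles (65.0%), beside 55.6% of all tested tiles below 0. Without SSEA1+ 1, iPSC were nearer to SSEA1+ at 84 of 172 lower tiles (48.8%). At 147 tiles (55.3%) MEF were nearer to SSEA1- and iPSC to SSEA1+, beside 37.0% of all tested tiles below 0. At 89 both were nearer to SSEA1-, an order not counted over all tested tiles. The tile near Bsx is of the first kind and the one near Gnaq of the second. Female ESC, with medians of 28.7 to 29.4%, were nearer to SSEA1+ at 236 of the lower tiles (88.7%), beside 72.1% of all tested tiles below 0. Male ESC were nearer to SSEA1+ at 118 (44.4%), beside 56.0%.

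At the higher tiles, median levels of female fibroblasts lay between those of the sorted populations. Over the 173 tiles SSEA1+ had medians of 48.2% and 45.8%, SSEA1- had medians of 12.9% and 12.1%, the 4 female MEF ranged over 23.6 to 35.1%, and iPSC stood at 58.1% and 54.6%. MEF were nearer to SSEA1- at 103 tiles (59.5%) and nearer to SSEA1+ at 70, beside 35.3% nearer to SSEA1- among all tested tiles above 0. The iPSC were nearer to SSEA1+ at 119 (68.8%), beside 57.8%. At 62 tiles (35.8%) MEF were nearer to SSEA1- and iPSC to SSEA1+, beside 13.9% of all tested tiles above 0. At 57 both were nearer to SSEA1+, which leaves SSEA1- as the population apart. This last order was not counted over all tested tiles. Without SSEA1- 2, MEF were nearer to SSEA1- at 51 of 127 higher tiles (40.2%), and without SSEA1+ 1 at 29 of 37 (78.4%). Male ESC medians were 73.2% and 73.3%, and those of female ESC 35.8 to 38.7%.

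**Figure D3:**
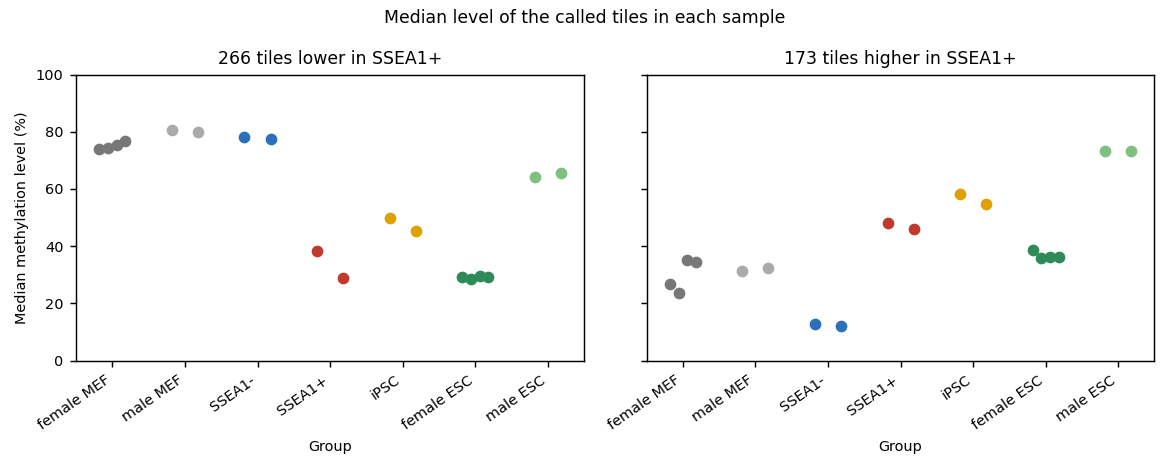
Median methylation level (y axis, %) of the 266 lower (left) and 173 higher (right) tiles in each of the 18 samples, 1 point per sample, by group (x axis). At the lower tiles SSEA1- (78.3% and 77.5%) lie with MEF and SSEA1+ (38.1% and 28.7%) below them; at the higher tiles SSEA1- (12.9% and 12.1%) lie below MEF.

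The iPSC were compared with female MEF over the same tiles. This contrast shares no library with the difference of SSEA1+ and SSEA1- means. However, iPSC and MEF entered the fit of 7 groups through the shared spread and the choice of usable tiles, so the calls are not independent. Of 37615 tiles, 8371 (22.3%) were lower and 1089 (2.9%) higher in iPSC. Of the 266 tiles lower in SSEA1+, 134 (50.4%) were also lower in iPSC, and they made up 1.91% of the 7004 such tiles usable in all samples. Tiles under 20% in MEF cannot be lower by 20 points, so the shares are given by MEF level. At 80 to 100% in MEF, 64 of 115 lower tiles (55.7%) were lower in iPSC, beside 50.1% of all tested tiles of that level. At 60 to 80% these were 32 of 70 lower tiles (45.7%) beside 35.3%, at 40 to 60% 27 of 44 lower tiles (61.4%) beside 30.4%, and at 20 to 40% 11 of 26 lower tiles (42.3%) beside 13.9%. Of the 173 tiles higher in SSEA1+, 65 (37.6%) rose from MEF to iPSC as well, 7.58% of the 857 such tiles. In the opposite direction, 15 of these 173 (8.67%) were lower in iPSC, beside 21.8% of all tested tiles. Of the 266 lower tiles, 2 (0.752%) were higher in iPSC, beside 2.66% of all tested tiles. These opposite shares were not split by MEF level, which bears on them. At 50% or more in MEF lay 214 of the lower tiles, and 0.599% of all tested tiles of that level were higher in iPSC. Under 50% lay 118 of the higher tiles, and 2.05% of all tested tiles of that level were lower in iPSC. The tile nearest to Cep250, among the 10 largest gains, was lower in iPSC (26.8% ± 4.98) than in MEF (68.2% ± 6.51). SSEA1+ stood at 79.7% and 93.3% there and SSEA1- at 32.6% and 32.9%, so MEF lay between them. Under 20% in MEF, 34 of 69 higher tiles (49.3%) were higher in iPSC, beside 2.71% of all tested tiles of that level. At 20 to 40% these were 21 of 38 higher tiles (55.3%) beside 17.3%, and at 40 to 60% 10 of 28 higher tiles (35.7%) beside 13.9%. At 60 to 80% they were 0 of 30 beside 0.504%, and at 80 to 100% 0 of 8 beside 0%. Tiles at 80 to 100% in MEF have little room to rise by 20 points. A tile low in all samples can be called in neither contrast, which bears on the lowest MEF class. Without SSEA1+ 1, 12 of 37 higher tiles (32.4%) were higher in iPSC. With MEF 3 and 4 alone, whose share of CpGs read on both strands was near that of iPSC, the counts were 136 and 63.

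Over all tiles that differ between iPSC and MEF, the SSEA1+ means lay on the iPSC side of the SSEA1- means by a few points. At the 8371 tiles lower in iPSC, the mean level was 77.2% and 74.4% in SSEA1+, 79.3% and 79.05% in SSEA1- and 81.7% in MEF, with a median difference of -2.21 points between the sorted populations. By MEF level, tiles lower in iPSC differed by a mean of -2.89 points at 80 to 100%, -4.26 at 60 to 80%, -6.24 at 40 to 60% and -4.83 at 20 to 40%. Tiles not called in iPSC differed by -2.02, -1.74, -0.117 and -1.27 points in the same classes. At the 1089 tiles higher in iPSC, SSEA1+ had 31.1% and 27.9%, SSEA1- 23.3% and 23.1% and MEF 24.5%, with a median difference of 3.28 points (exact permutation p = 0.333 for the mean over tiles, the smallest possible). The median was 5.11 points without SSEA1+ 2, 1.62 without SSEA1+ 1 and 1.07 at 10 reads per CpG. At tiles under 20% in MEF the means were 13.9% and 12.4% against 8.09% and 7.95%, at 20 to 40% they were 39.6% and 34.6% against 29.7% and 28.6%, and at 40 to 60% 55.1% and 51.03% against 45.7% and 46.5%. Tiles under 20% in MEF without a call in iPSC had 2.11% and 1.73% against 1.99% and 1.85%, with overlap.

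**Figure D4:**
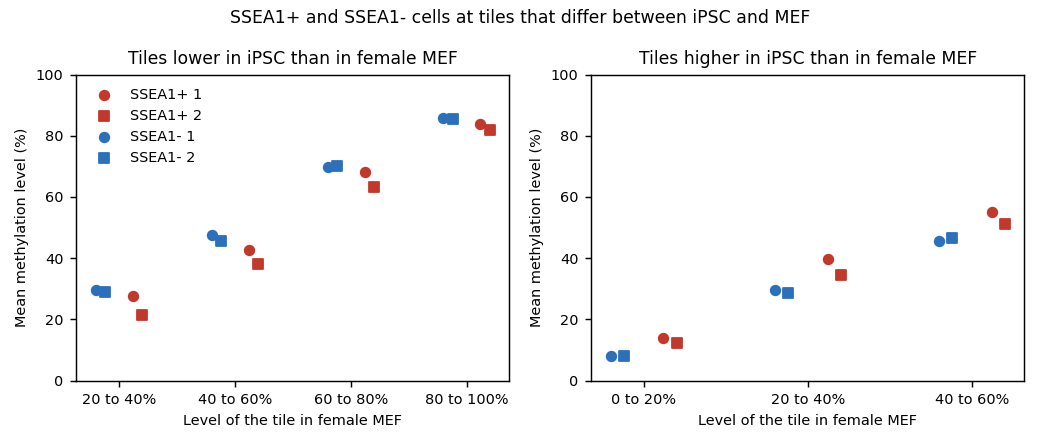
Mean methylation level (y axis, %) of each SSEA1+ (red) and SSEA1- (blue) sample over tiles called lower (left) or higher (right) in iPSC than in female MEF, by the level of the tile in female MEF (x axis). Both SSEA1+ samples lie below SSEA1- in each class on the left and above it in each class on the right, where the class of 20 to 40% has 39.6% and 34.6% against 29.7% and 28.6%.

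Placed promoters were nearly all low in both sorted populations. Of 7199 promoter tiles, 6745 (93.7%) were under 10% in all 4 samples. The quasi-binomial fit of the 4 libraries called 0 of them, as it called 0 of all 64234 tiles. The 4 promoter tiles called in the fit of 7 groups were those of Acot11, 4430402I18Rik, Gm38675 and Gm46530. At Acot11, the gene of an acyl-CoA thioesterase (chromosome 4, 106472001 to 106473000), SSEA1+ had 27.04% and 41.2% and SSEA1- 10.3% and 12.9% (adjusted p = 0.0364). This call was lost on leaving out any 1 of the 4 libraries. At 4430402I18Rik (chromosome 19, 29042001 to 29043000), SSEA1+ had 53.3% and 30.8% and SSEA1- 14.9% and 11.98% (adjusted p = 0.0245), MEF had 24.5% ± 7.85, and the call was kept without SSEA1+ 2 only. Their promoter sequences, from RefSeq (GRCm38.p6), run 5′ to 3′ from 250 bases before to 50 after the start, with CpGs in capitals, and show where the CpGs of these promoters lie.
Acot11: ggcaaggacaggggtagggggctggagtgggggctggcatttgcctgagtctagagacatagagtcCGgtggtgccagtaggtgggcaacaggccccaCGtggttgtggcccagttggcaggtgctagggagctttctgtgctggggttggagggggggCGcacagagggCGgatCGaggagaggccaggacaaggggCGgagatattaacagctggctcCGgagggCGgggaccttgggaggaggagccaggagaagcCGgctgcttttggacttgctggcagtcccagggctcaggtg
4430402I18Rik: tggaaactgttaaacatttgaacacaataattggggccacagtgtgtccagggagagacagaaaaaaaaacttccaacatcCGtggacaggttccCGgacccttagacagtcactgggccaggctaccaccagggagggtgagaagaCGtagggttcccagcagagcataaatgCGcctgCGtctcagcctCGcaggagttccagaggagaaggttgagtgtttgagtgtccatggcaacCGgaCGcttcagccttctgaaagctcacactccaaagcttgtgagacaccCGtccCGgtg
Within these windows, 5 of the 10 CpGs of 4430402I18Rik were read in the 4 samples, with 53.3% and 30.8% in SSEA1+ against 12.8% and 11.98% in SSEA1-. At Acot11, 4 or 5 of the 9 CpGs were read, with 19.4% and 16.7% against 0% and 3.57%. The Acot11 window held 98 of the 233 reads of its tile in SSEA1+ 1 and 30 of 114 in SSEA1+ 2, so much of the methylation of that tile lay outside the sequence shown. Gm38675 had 36.4% and 13.6% in SSEA1+ against 0.312% and 3.62%, but within its promoter window SSEA1+ 2 stood at 0%. Gm46530 was lower in SSEA1+, with 6.72% and 4.26% against 40.4% and 20.1%, and its promoter window was at 0 to 1.40% in all 4 samples, on 1 CpG in SSEA1- 1 and 7 in the others. The samples read different CpGs in this tile: 6 CpGs at 0% in the other 3 samples were not usable in SSEA1- 1, which alone read a further CpG at 100%. Over the 3 CpGs usable in all 4 samples it stood at 10.2% and 11.1% in SSEA1+ and at 17.3% and 31.97% in SSEA1-, a difference of -13.98 points, and only 1 of these CpGs was lower in both SSEA1+ samples than in both SSEA1- samples. The calls at Gm38675 and Gm46530 were lost without SSEA1+ 1 and without SSEA1- 1, and that at Gm46530 also without SSEA1+ 2.

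Germline promoters were methylated in the SSEA1+ cells. The 5 of 18 germline genes on the list with a usable promoter tile were Mael, Ddx4, Hormad1, Slc25a31 and Tex101. Mael, which acts in silencing of transposons by small RNAs, stood at 78.8% and 90.8% in SSEA1+, 74.4% and 76.2% in SSEA1- and 80.5% ± 8.60 in MEF, but at 17.2% ± 0.0736 in iPSC and 16.001% ± 6.43 in female ESC. Ddx4, a germ cell RNA helicase gene, stood at 88.4% and 70.7% in SSEA1+, 66.5% and 68.6% in SSEA1-, 69.3% ± 7.11 in MEF and 23.01% ± 5.12 in iPSC. Hormad1, the gene of a protein of the meiotic chromosome axis, stood at 90.03% and 85.2% in SSEA1+, 82.7% and 80.6% in SSEA1- and 5.05% ± 2.62 in female ESC. At these 3 promoter tiles both SSEA1+ samples were above both SSEA1- samples, and at Tex101 both were below. How many of all promoter tiles had such an order was not counted. The quasi-binomial fit of the 4 libraries called 0 of the 5 (that of 7 groups 0 of the 4 it tested). The first called no tile at all and the second 4 of 5708 promoter tiles, so these counts cannot single out germline promoters. The sequences show their many CpGs (capitals), in the orientation and window given above.
Mael: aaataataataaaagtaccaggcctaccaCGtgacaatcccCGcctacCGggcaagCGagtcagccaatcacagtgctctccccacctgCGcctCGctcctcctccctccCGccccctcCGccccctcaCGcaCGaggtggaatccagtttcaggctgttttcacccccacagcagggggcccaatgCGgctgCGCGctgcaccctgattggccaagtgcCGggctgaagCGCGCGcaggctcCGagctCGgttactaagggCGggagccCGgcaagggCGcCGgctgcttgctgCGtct
Ddx4: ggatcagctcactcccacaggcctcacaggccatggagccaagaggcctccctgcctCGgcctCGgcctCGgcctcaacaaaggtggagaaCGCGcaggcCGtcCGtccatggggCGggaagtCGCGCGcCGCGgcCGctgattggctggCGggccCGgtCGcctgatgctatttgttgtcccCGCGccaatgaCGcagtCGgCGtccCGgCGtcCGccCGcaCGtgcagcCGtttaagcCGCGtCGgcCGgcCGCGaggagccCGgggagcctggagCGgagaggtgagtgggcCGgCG
Hormad1: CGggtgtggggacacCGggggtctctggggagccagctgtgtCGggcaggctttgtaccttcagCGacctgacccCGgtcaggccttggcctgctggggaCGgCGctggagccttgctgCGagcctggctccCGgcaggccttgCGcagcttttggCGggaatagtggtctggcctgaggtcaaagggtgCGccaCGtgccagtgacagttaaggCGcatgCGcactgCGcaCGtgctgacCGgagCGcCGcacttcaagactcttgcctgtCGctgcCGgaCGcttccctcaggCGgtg
Within these windows, 15 to 19 of the 24 CpGs of Hormad1 were read in the 4 samples, at 90.9% and 84.1% in SSEA1+ and 87.3% and 79.4% in SSEA1-, where the groups overlapped. The Mael window stood at 80% and 90.8% in SSEA1+ and at 81.5% and 78.9% in SSEA1-, also with overlap. That of Ddx4 stood at 87.9% and 70.7% against 65.7% and 68.6%, without overlap. Slc25a31, the testis ADP/ATP carrier gene, had 95.3% and 83.3% in SSEA1+ and 90.5% and 89.8% in SSEA1-, and 32.1% ± 5.86 in iPSC. Tex101, which encodes a sperm protein, had 90.7% and 92.9% against 100% and 95.1%, and 74.5% ± 1.53 in iPSC. Male ESC stood at 25.4% at Mael, 28.2% at Ddx4 and 33.1% at Hormad1, but at 58.8% at Slc25a31 and 94.1% at Tex101. The 5 differences ranged from -5.80 to 12.003 points with a median of 5.93. Over the 64 promoter tiles at 50% or more in all 4 samples the median was -1.80. Over all promoter tiles it was 0, where 93.7% were under 10% and had little room to differ.

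At 50% or more in all 4 SSEA1 samples stood 64 promoter tiles, the 5 germline ones included, with a median of 84.4% in SSEA1+, 85.1% in SSEA1- and 84.7% in female MEF. Of the 48 with an iPSC level, 22 were under 50% in iPSC, and of the 53 with a female ESC level, 40 were under 50% there. Female ESC were low over all tested tiles, with medians of 10.5 to 10.8% against 22.7% and 24.2% in male ESC. Promoter tiles under 50% in male ESC were not counted. Dmrtb1, a regulator of the entry into meiosis that is named here after its values were seen, had 79.8% and 88.5% in SSEA1+, 86.6% and 85.2% in SSEA1- and 34.9% in iPSC. The median difference between SSEA1+ and SSEA1- over the 64 tiles was -1.80 points.

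**Figure D5:**
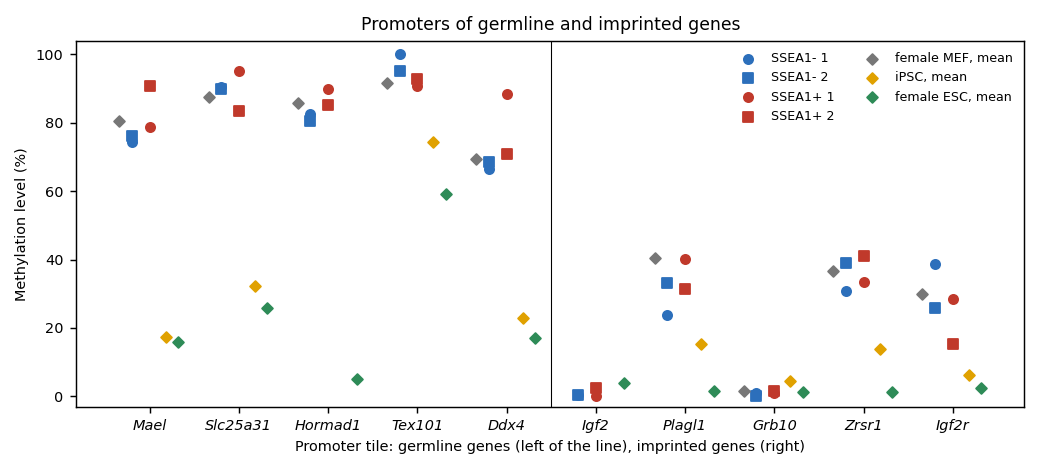
Methylation level (y axis, %) of the promoter tiles of germline (left of the line) and imprinted genes (right), with samples 1 (circles) and 2 (squares) of SSEA1- (blue) and SSEA1+ (red) and the means of female MEF, iPSC and female ESC (diamonds). Mael, Slc25a31, Hormad1, Tex101 and Ddx4 are at 66.5% or more in all 4 SSEA1 samples, while iPSC and female ESC lie lower where they were read. Male ESC are not drawn.

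Some promoters of imprinted genes are methylated on the copy from a single parent. Of the 5 measured, those of Plagl1, Zrsr1 and Igf2r had intermediate levels on both sides of the sort. Plagl1, a zinc finger gene, stood at 40.1% and 31.5% in SSEA1+, 23.9% and 33.1% in SSEA1- and 40.4% ± 2.77 in MEF, against 15.3% ± 5.88 in iPSC and 1.55% ± 1.24 in female ESC. Zrsr1 stood at 33.3% and 41.1% against 30.9% and 38.9%, with iPSC at 13.95% ± 6.34. Igf2r, a receptor gene for insulin-like growth factor 2, stood at 28.5% and 15.3% against 38.6% and 25.8%, with iPSC at 6.19% ± 0.297. In male ESC, Plagl1 stood at 45.1% ± 6.47, Zrsr1 at 21.9% ± 1.51 and Igf2r at 5.09% ± 0.620. The SSEA1 groups overlapped at each of the 3. Grb10 and Igf2 were at 2.33% or less. The quasi-binomial fit of the 4 libraries called 0 of these 5 promoter tiles, and that of 7 groups 0 of the 4 tested. The first fit called no tile at all and the second 4 of 5708 promoter tiles, so these counts cannot single out imprinted promoters.

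The measured promoters of pluripotency, epithelial and fibroblast genes were mostly low in both populations. Placing needed 5 or more matched CpGs, so promoters with few CpGs read were left out. Those of Pou5f1, Nanog, Cdh1 and Epcam were on the lists but not measured. The 6 of 29 pluripotency promoters with a usable tile were those of Tfcp2l1, Sox2, Klf4, Fgf4, Klf2 and Trim71, and these lay at 5.005% or less except Sox2 in SSEA1+ 2 (11.1%). Of 6 epithelial promoters, Spint1, Spint2, Cldn7, Ocln and Crb3 lay at 4.95% or less, whereas Krt18, the gene of a keratin of simple epithelia, stood at 20.4% and 9.89% in SSEA1+ and 28.4% and 26.2% in SSEA1-. The MEF level of Krt18 was 17.3% ± 3.01 and that of iPSC 9.13% ± 0.0372. Twist2, Zeb2, Snai1, Col1a2 and Runx1, from the fibroblast list, lay at 1.17% or less in all 4 samples.

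Among the 10 promoter tiles of methylation enzymes, an internal promoter of the de novo methyltransferase gene Dnmt3a (chromosome 12, 3891001 to 3892000) had 0.549% and 0% in SSEA1+ and 17.3% and 9.42% in SSEA1-, with MEF at 13.3% ± 7.48 and iPSC at 4.79% ± 0.313. No tile of these lists was called in either fit. The fit of 7 groups tested 4 of 6 pluripotency, 6 of 6 epithelial, 4 of 5 fibroblast and 8 of 10 methylation enzyme tiles. At the Dnmt3a tile the adjusted p was 0.737 in the quasi-binomial fit of the 4 libraries and 0.142 in that of 7 groups. The fit of 4 called no tile at all and that of 7 groups 4 of 5708 promoter tiles, so the lack of calls cannot single out these lists. The iPSC libraries read a median of 3.21% at promoter tiles under 1% in MEF and ESC, where SSEA1+ and SSEA1- read 0%, so iPSC values of a few percent are at that background. Fut4 and Fut9, whose enzymes make the SSEA1 sugar, had no placed promoter.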

How the data were processed

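The files, 1 per sample, were deposited by the authors and list CpGs by strand, with the count of reads covering a CpG and the count of methylated ones. They also hold a deposited score that was not used. Per the submitters' processing notes the build is mm9, and positions are numbered from 1. The software that made the calls is not given in the sources used here.

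Tiles were tested with a quasi-binomial logistic model. Its dispersion was moderated across tiles as limma moderates variances, with a lower bound of 1, and F tests were adjusted by Benjamini-Hochberg over all tiles. The first fit, of the 4 SSEA1 libraries, called no tile, so the tiles described were called in a second fit, of 7 group means to all 18 samples. In each direction the tiles named are the 10 of largest difference among called tiles without overlap of samples (1 per 100 kb), the first 5 with 30 or more CpGs, the first 5 called the same way in iPSC against female MEF, and called promoters. The comparison and the gene lists (pluripotency, epithelial, mesenchymal and fibroblast, germline, methylation enzymes, SSEA1 synthesis, imprinted) were chosen with earlier results of these data known.

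No mm9 genome was used here. RefSeq promoter sequences (GRCm38.p6) were placed on mm9 by the spacing of their CpGs: of 31396, 7162 matched 8 or more CpGs at a single place and in gene order, and 1999 matched 5 or more CpGs between placed neighbours. The same searches in wrong places gave 14 and 24 matches.

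Alternatives were a minimum of 10 or 3 reads, reads capped at 50 per CpG, shared CpGs, 5 CpGs per tile, limma on log2 ratios (prior count of 1), a replicate block, MEF 3 and 4 alone, and leaving out each SSEA1 sample. Chosen after seeing the data were the fit of the 4 libraries over tiles of 5 to 95%, library type as a term (a lower share of CpGs read on both strands in iPSC and female MEF 3 and 4, a division inferred from the files and not given in the labels), these alternatives within the fit of 7 groups, and those of the medians over tiles that differ in iPSC. The model was tested on simulated data. Python 3.11.15 with scipy 1.17.1 was used. The limma alternative was its method rewritten in Python, and the package itself (version 3.58.1) was run only on simulated variances.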

Additional observations from a re-analysis of the deposited data

Results flagged for a closer look

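At the named tiles, 64 groups of 4 samples were examined, and in 4 of them 1 sample stood far from the other 3. Chance gives this in about 1 in 20 groups. Female MEF 1 stood at 94.4% in the tile nearest to Gm35978, against 83.5 to 85.3% in the other 3. Female MEF 2 stood at 57.9% in the tile nearest to Iqca, against 48.3 to 49.6%. Female ESC 4 stood at 17.5% in the promoter tile of 4430402I18Rik, against 5.88 to 7.45%, and at 21.4% in that of Acot11, against 11.97 to 13.2%. None of these samples is an SSEA1 library.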

How the results depend on the processing

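In the fit of the 4 libraries, 0 tiles were called at 10 or 3 reads, with capped reads, with shared CpGs, at 5 CpGs per tile, with limma, with a replicate block and without each sample, where the lone sample of an arm is assumed to vary like the others. The fit of 7 groups called 439 (266 lower, 173 higher), and the fit of 4 over tiles of 5 to 95% called 214 (117 and 97). Replicate numbers are shared in the labels, but deviations of samples of the same number correlated at 0.0162, so the numbers were not taken as pairs. With the replicate block, the fit of 7 groups called 332 (198 and 134), and the level difference was -0.961 points. The fit of 7 groups called 106 tiles (64 lower, 42 higher) at 10 reads, 716 (439 and 277) at 3 reads, 225 (133 and 92) with shared CpGs, 93 (57 and 36) at 5 CpGs per tile, 285 (170 and 115) with limma, 491 (296 and 195) with capped reads and 700 (417 and 283) with library type as a term. The settings of 10 reads, shared CpGs and 5 CpGs tested fewer tiles (12396, 16396 and 16804). Leaving out 1 SSEA1 sample gave 209 to 354 calls, 166 to 194 lower and 37 to 188 higher. The level difference was -4.12 points weighted by reads, -5.07 over own CpGs, and -1.59 to -0.332 without 1 sample. The share of called tiles with MEF nearer to SSEA1- was 77.2%, and 60.7 to 92.3% without 1 sample. With iPSC nearer to SSEA1+ it was 66.5%, 72.6% at 10 reads and 50.7 to 69.2% without 1 sample. The share also called in iPSC was 45.3%, and 39.9 to 47.8% without 1 sample. Without 1 sample the median difference was -2.87 to -1.32 points at tiles lower in iPSC and 1.62 to 5.11 at tiles higher in iPSC. Other causes of these changes were not tested. At the 32 named tiles no difference changed sign under the alternatives that tested them, and 17 lost the call without SSEA1+ 1, 15 in the fit of the 4 libraries over tiles of 5 to 95%, 8 with limma and 3 with the replicate block. SSEA1+ 2, with a median of 9 reads per CpG, limits the precision of the SSEA1+ mean.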
